A study of Homo sapiens with 4 samples.

Results

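Sites that both LAP-Smad2 and LAP-Smad3 occupied after TGFβ-1, and neither occupied in any list without it, were compared with sites of a single Smad. A shared induced site is a LAP-Smad2 peak of the treated cells that overlaps a LAP-Smad3 peak of the treated cells by at least 1 bp and overlaps no peak of either untreated list, on chromosomes 1 to 22 and X. There were 4299 such sites among the 26612 LAP-Smad2 peaks on these chromosomes, of 104156 peaks in the 4 lists. Seen from the other side, 4387 of 62268 LAP-Smad3 peaks overlapped a LAP-Smad2 peak and no untreated peak. The sites were selected on these peak calls, so the number of sites and their overlap are a description and not a finding. "Induced" means here that a peak was called after TGFβ-1 and not before it.

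The cells were MDA-MB-231, an established human breast cancer line, stably transfected with a bacterial artificial chromosome (BAC) that carries SMAD2 or SMAD3 with its own regulatory sequence and a localization and affinity purification (LAP) tag. The tag includes GFP, and binding was measured by ChIP-seq with an antibody to GFP. In both cell populations the untagged Smads were still present, and the cells were a Geneticin-selected and GFP-sorted population. The 4 conditions were LAP-Smad2 untreated, LAP-Smad3 untreated, and each of these after 10 ng/mL TGFβ-1 for 2 h, with 1 library per condition and hence no replicate check and no p-value. The lists held 11266 and 3511 peaks for the libraries labelled LAP-Smad2 untreated and LAP-Smad3 untreated, and 26828 and 62551 for LAP-Smad2 and LAP-Smad3 after TGFβ-1. Without TGFβ-1, each deposited list is named for the Smad that its label does not give. The label decides what a list is called here, and which sites are shared and induced does not depend on it, since both untreated lists were used to leave sites out. The number of reads behind each list is unknown, so the absence of an untreated peak is not an absence of binding.

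Smad2 and Smad3 are the receptor-regulated Smads of the TGFβ pathway. The activated receptor phosphorylates them, they join Smad4, enter the nucleus and bind DNA weakly, mostly together with other transcription factors. The DNA-binding domain of Smad3 recognizes the CAGAC box of the Smad-binding element and GC-rich 5-base variants of it such as GGCGC, whereas the common form of Smad2 carries an insert that hinders direct contact with DNA.

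The sequence under the sites fell into a few recurring kinds. Windows of 200 bp on the LAP-Smad2 summit were searched for 20-mers that recur among the shared induced sites. Windows of LAP-Smad3-only sites, here and below, were centred on their LAP-Smad3 summit. Of the 4299 sites, 1976 (46.0%) held none of the 15 found this way, each of which covered at least 20 sites not yet covered. The 20-mers with at least 50000 copies in the genome were grouped by copy number alone into a high-copy kind, which matches the Alu element. Of the other 20-mers, those that keep a fixed order and spacing in the genome were joined. This gave a kind matching the 5′ untranslated region of the LINE-1 element and a kind matching the 5′ region of the SVA element. Alu, LINE-1 and SVA are retrotransposons, DNA elements that copied themselves through the human genome many times. The names rest on the known consensus of these elements, and no repeat annotation was used. The LINE-1-type sites are represented by their 20-mers, in the order in which they lie along the element, with position 1 at the start of the 20-mer farthest upstream.

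LINE-1-type, positions 1 to 20: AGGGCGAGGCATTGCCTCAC
LINE-1-type, positions 35 to 54: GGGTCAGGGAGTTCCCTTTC
LINE-1-type, positions 216 to 235: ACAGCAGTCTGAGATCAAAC
LINE-1-type, positions 317 to 336: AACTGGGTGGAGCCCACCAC
LINE-1-type, positions 395 to 414: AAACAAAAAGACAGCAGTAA

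In hg38 these 20-mers have 1971, 2453, 3710, 3313 and 2737 copies on the chromosomes used, and they lay in 169, 179, 162, 177 and 85 of the shared induced windows.

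The 150 bp around the LAP-Smad2 summit are shown for 3 promoter sites without recurring 20-mers or near-identical copies and clear of annotated exons, from the plus strand of hg38, with the CAGAC box, its variant GGCGC and its further variant GGCCG in capitals on either strand. They are chr20:57692546-57692695, at -791 bp from a start of PMEPA1 (a minus sign means upstream), chr3:61251019-61251168, at 319 bp from a start of FHIT, and chr6:37004253-37004402, at -1327 bp from a start of FGD2. PMEPA1 and FHIT are among the 10 best-ranked promoter sites named below, and FGD2 ranks lower.

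PMEPA1 site: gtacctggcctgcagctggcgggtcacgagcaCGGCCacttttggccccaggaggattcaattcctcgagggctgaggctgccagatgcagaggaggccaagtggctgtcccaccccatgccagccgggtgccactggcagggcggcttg
FHIT site: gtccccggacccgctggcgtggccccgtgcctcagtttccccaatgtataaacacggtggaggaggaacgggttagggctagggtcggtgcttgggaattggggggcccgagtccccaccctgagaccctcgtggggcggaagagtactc
FGD2 site: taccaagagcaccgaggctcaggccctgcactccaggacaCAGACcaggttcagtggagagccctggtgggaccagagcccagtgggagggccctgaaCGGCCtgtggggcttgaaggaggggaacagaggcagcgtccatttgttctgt

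These windows have 1, 0 and 2 matches, and only that of FGD2 has CAGAC. Their LAP-Smad2 folds, the enrichment over local background at the summit, are 4.32, 4.95 and 3.79. Their LAP-Smad3 folds are 7.72, 7.72 and 5.39, but the LAP-Smad3 summit lies inside the letters shown at PMEPA1 only, and just outside them at FHIT and FGD2.

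The kinds occurred in 1374 (Alu-type, 32.0%), 469 (LINE-1-type, 10.9%) and 421 (SVA-type, 9.79%) of the shared induced sites, and 59 sites (1.37%) held other recurring 20-mers. The LINE-1-type share was 3.98% (Wilson 95% interval 3.82% to 4.15%, 2112 of 52999) at LAP-Smad3-only sites, 0.267% (45 of 16869) at LAP-Smad2-only sites and 0.176% (4 of 2268) at shared sites that also overlapped an untreated peak. The intervals given throughout cover counting error only. Shared induced sites held more LINE-1-type sequence than LAP-Smad3-only sites on 23 of 23 chromosomes, by a median of 7.82 percentage points. The windows differ in centring, and the last LINE-1-type 20-mer ends at position 414. Of 2884 LAP-Smad3 summits on the elements, 323 lay between 500 and 549 bp, 138 between 550 and 599 bp and 62 between 600 and 649 bp. All of these are too far for their window to hold that 20-mer. Of 523 LAP-Smad2 summits, the same bins held 6, 2 and 0. The share at LAP-Smad3-only sites can therefore be too low. SVA-type sequence was at 1.32% of LAP-Smad2-only and 0.223% of LAP-Smad3-only sites, against 16.0% (14.5% to 17.5%) of shared sites that overlapped an untreated peak. The Alu-type share of the shared induced sites lay near that of LAP-Smad3-only sites (34.3%) and above that of LAP-Smad2-only sites (14.6%). Of 291113 windows placed every 10 kb along the genome, 5.72% were Alu-type, 0.0697% LINE-1-type and 0.0271% SVA-type.

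**Figure D1:**
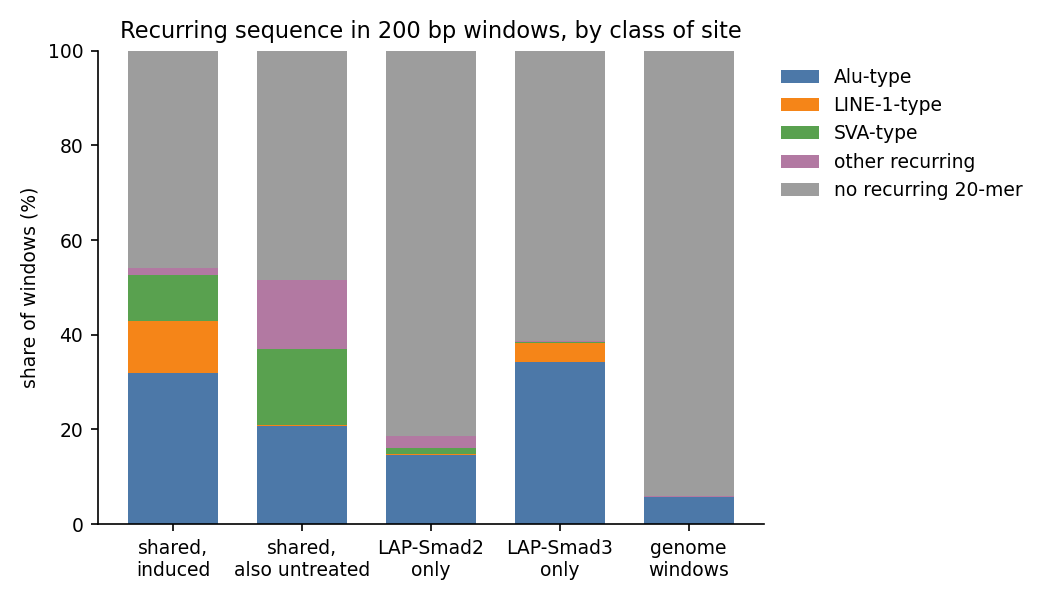
Share of 200 bp windows (y axis, %) that hold recurring 20-mers of each kind, for shared induced sites, shared sites that also overlap an untreated peak, sites of a single Smad without an untreated peak, and windows spaced along the genome. Shared induced sites have the tallest LINE-1-type part (10.9%), and 46.0% of them hold no recurring 20-mer.

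The 20-mers were chosen on the shared induced sites themselves, which raises their share there. When 16 such 20-mers were chosen on the odd-numbered chromosomes alone and counted on the even-numbered ones, 52.6% (50.4% to 54.8%) of 1957 shared induced sites held at least 1 of them. The same count gave 54.5% of shared sites that also overlapped an untreated peak, 34.9% of LAP-Smad3-only sites and 17.9% of LAP-Smad2-only sites. Of the shared induced windows, 61.9% (60.5% to 63.4%) had at least 1 further near-identical copy in hg38, against 83.1% of shared sites that also overlapped an untreated peak, 35.2% of LAP-Smad3-only and 21.4% of LAP-Smad2-only windows. Reads from such copies cannot be assigned to a single place, and how the authors treated them is not given in the sources used here. The part of read assignment in the overlap of the lists was not tested.

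The elements of the genome were also counted from the side of the DNA. Their 20-mers were chosen on the shared induced sites, so this is not a separate check. That choice favours elements with peaks in both treated lists and without untreated peaks. Elements were counted where at least 3 of the 20-mers of a kind lay in a row. Of 2826 LINE-1-type elements, 83.5% (82.1% to 84.8%) overlapped a LAP-Smad3 peak after TGFβ-1, 17.8% (16.4% to 19.2%) a LAP-Smad2 peak after TGFβ-1, and 0.283% a peak of either untreated list. Of the 502 elements with a LAP-Smad2 peak, 96.2% also had a LAP-Smad3 peak, whereas 20.5% of the 2360 elements with a LAP-Smad3 peak had a LAP-Smad2 peak. LAP-Smad2 was thus rarely called on a LINE-1-type element without LAP-Smad3.

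SVA-type elements differed in that they had peaks without TGFβ-1. Of 611 such elements, 86.1% overlapped a LAP-Smad2 peak and 80.4% a LAP-Smad3 peak after treatment. The library labelled LAP-Smad2 untreated had a peak on 51.7% (47.8% to 55.7%) of them and the library labelled LAP-Smad3 untreated on 3.76% (2.52% to 5.59%). A shared induced site lay on 36.3% of the SVA-type and 16.1% of the LINE-1-type elements.

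**Figure D2:**
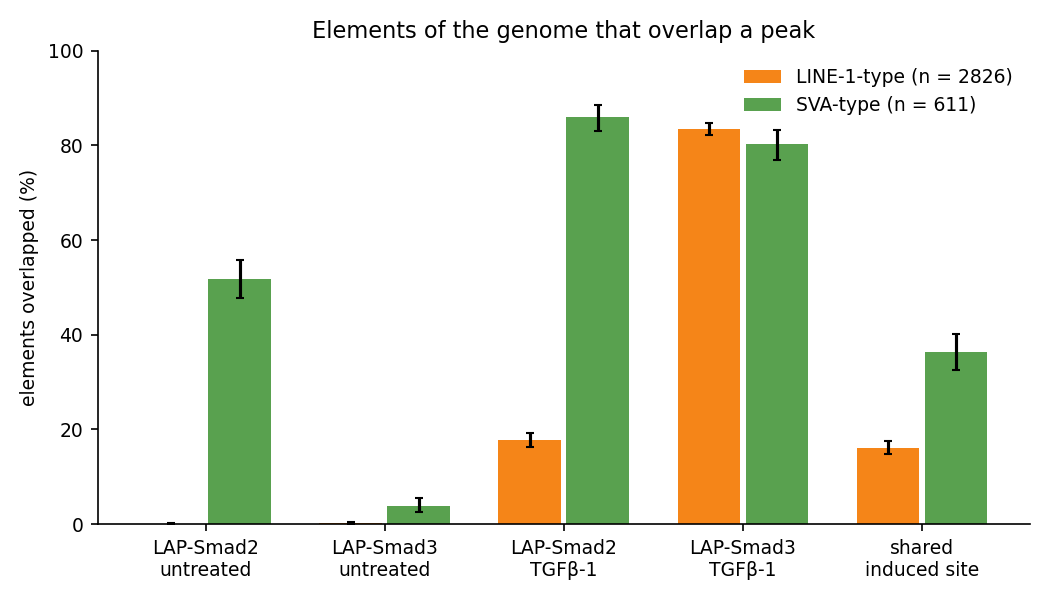
Share of LINE-1-type and SVA-type elements of the genome (y axis, %) that overlap a peak of each list or a shared induced site, with Wilson 95% intervals for counting error. LINE-1-type elements have almost no untreated peaks (0.283% with either list), whereas 51.7% of SVA-type elements overlap a peak of the library labelled LAP-Smad2 untreated.

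The summits of both Smads fell mostly on the same parts of the LINE-1-type element, except for a downstream stretch that held a larger share of LAP-Smad3 summits. Each treated peak with its summit between 200 bp upstream of position 1 and position 799 was placed along its element, whatever 20-mer its window held. Of 523 LAP-Smad2 summits, 46.7% lay between -100 and 149 bp, 45.3% between 200 and 399 bp, and 6.69% (4.85% to 9.16%) between 400 and 699 bp. Of 2884 LAP-Smad3 summits, 29.6% and 31.5% lay in the upstream stretches and 36.9% (35.2% to 38.7%) between 400 and 699 bp. Both Smads left the 50 bp from 150 to 199 nearly empty, with 0.956% of LAP-Smad2 and 1.60% of LAP-Smad3 summits. At the shared induced sites themselves, 7.20% of 472 LAP-Smad2 summits and 29.8% of 473 LAP-Smad3 summits lay between 400 and 699 bp, and the LAP-Smad3 summit was downstream of the LAP-Smad2 summit at 310 sites (65.7%) and upstream at 162. On SVA-type elements no such shift was seen. Their direction was taken as found and not from the consensus. Of 225 sites placed, the LAP-Smad3 summit lay at the higher position at 115 and at the lower position at 110. The limits of the stretches were set after the positions had been seen, and elements share sequence, so neighbouring copies are not independent.

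**Figure D3:**
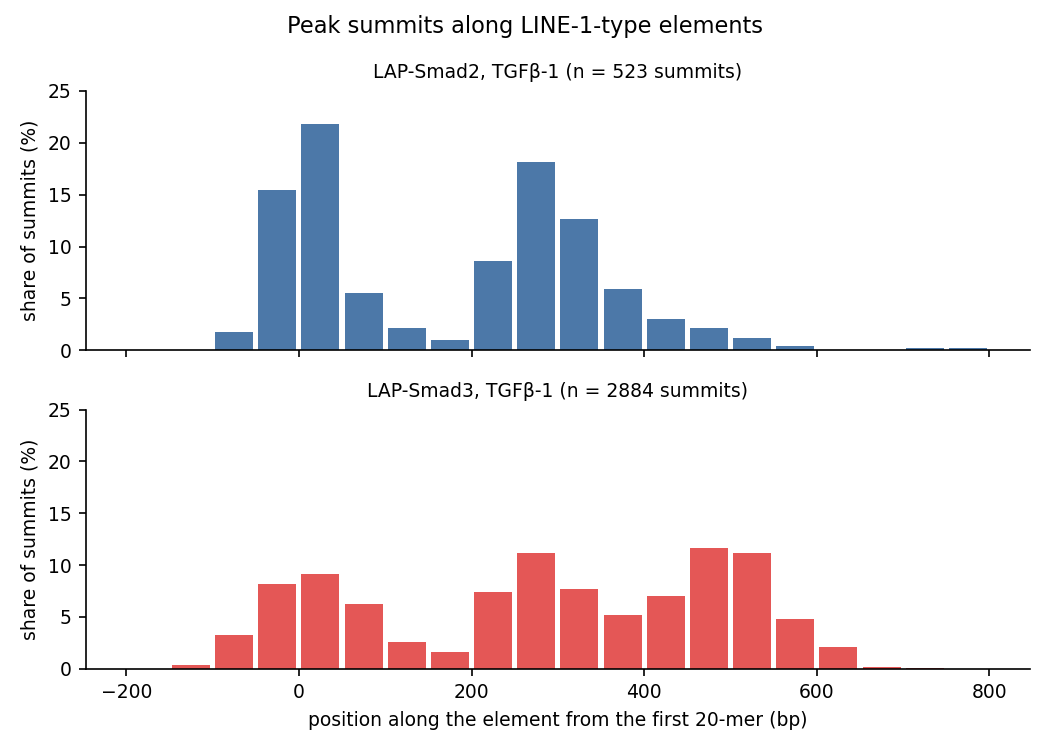
Positions of LAP-Smad2 summits (top, n = 523) and LAP-Smad3 summits (bottom, n = 2884) after TGFβ-1 along LINE-1-type elements, in bins of 50 bp, as a share of all summits placed (y axis, %). LAP-Smad2 has 2 clusters of summits, and LAP-Smad3 has a further cluster between 400 and 699 bp that holds 36.9% of its summits.

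Motif matches along the element are given by the position of their base nearest position 1, on either strand. CAGAC stood at position 222 in 67.9% of the 2826 elements, and at 390, 421, 438 and 500 in 51.7% to 56.0%. GGCGC stood at position 264 in 70.6%, and TGTTTAC, the core that forkhead factors bind, at position 293 in 60.9%. The stretch from 200 to 399 bp thus holds 2 recurring CAGAC positions (222 and 390), the GGCGC and forkhead positions and TGTGGT, the RUNX core, at 333 (58.0%), and the stretch from 400 to 699 bp holds 3 (421, 438 and 500). In the stretch from -100 to 149 bp, which held 46.7% of LAP-Smad2 summits, only the E-box CANNTG at position 82 reached this frequency at a single position. No single position of CAGAC or GGCGC did. Matches whose position varies between elements are missed by this count. Of the LINE-1-type shared induced windows, 95.5% held CAGAC and 80.6% GGCGC, so the stretch is not shown to lack them.

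The summits of LAP-Smad2 and LAP-Smad3 at shared induced sites lay a median of 77 bp apart (interquartile range 32 to 155 bp), 36.9% of them within 50 bp and 82.6% (81.5% to 83.7%) within 200 bp. Where a LAP-Smad2 peak overlapped several LAP-Smad3 peaks, as 81 sites (1.88%) did, the nearest summit was taken for the distance and the peak with the best q-value for the fold. The widths behind these distances were a median of 244 bp for LAP-Smad2 peaks and 287 bp for LAP-Smad3 peaks, and the summits were closer together than the centres of the intervals at 43.9% (42.4% to 45.4%) of the sites. The rule fixes part of the distance, since intervals that overlap cannot have summits far apart unless they are wide. Shared sites with an untreated peak had a median distance of 98 bp and wider LAP-Smad2 peaks (median 358 bp).

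The distance differed between the kinds of sequence. Alu-type sites had the shortest median, 47 bp, with 83.0% (81.0% to 84.9%) within 100 bp, and LINE-1-type sites the longest, 127 bp, with 44.1% (39.7% to 48.7%) within 100 bp. SVA-type sites had a median of 94 bp and sites without recurring 20-mers one of 105 bp. The LAP-Smad3 peaks over LINE-1-type sites were also the widest, with a median of 623 bp against 264 bp at Alu-type and 277 bp at sites without recurring 20-mers.

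**Figure D4:**
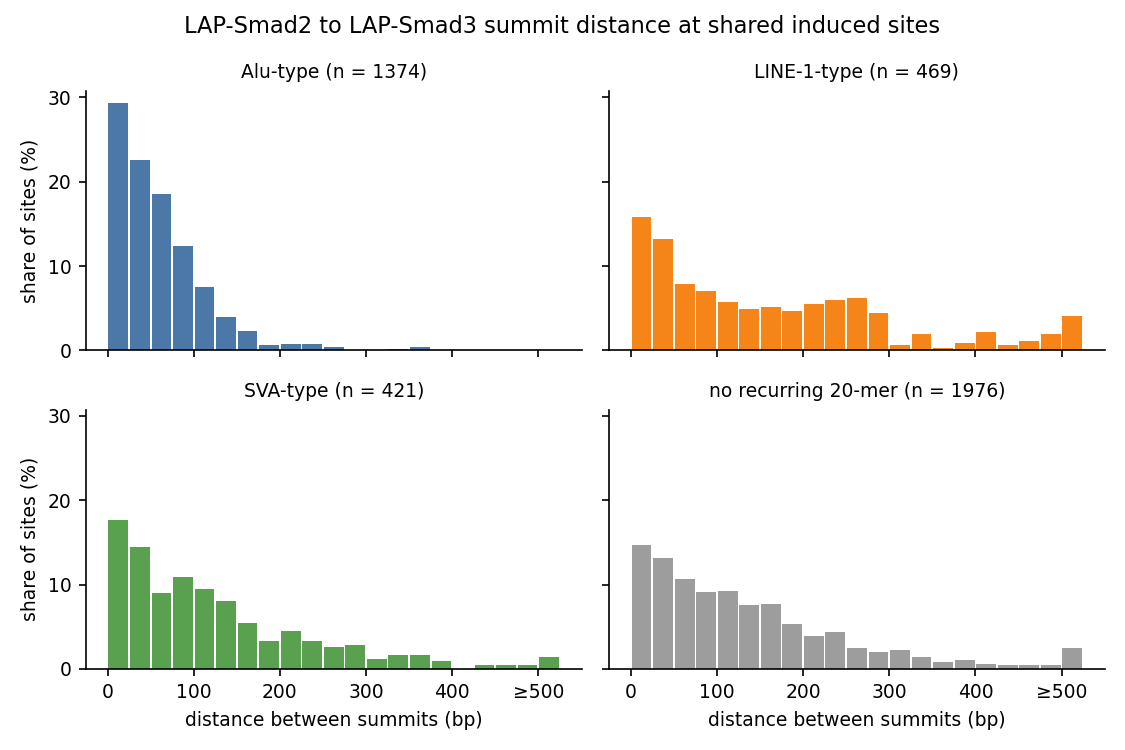
Distance between LAP-Smad2 and LAP-Smad3 summits (x axis, bp; the last bar holds all distances of 500 bp or more) at shared induced sites of 4 kinds, as a share of the sites of that kind (y axis, %). Alu-type sites crowd below 100 bp (83.0%), and LINE-1-type sites spread farther, with a median of 127 bp.

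The fold enrichment over local background at the summit had a median of 4.04 for LAP-Smad2 (range 1.57 to 8.37) and 4.97 for LAP-Smad3 (2.29 to 20.1). For comparison, LAP-Smad2-only sites had a median of 3.91 and LAP-Smad3-only sites one of 4.97. Across the 4299 sites the rank correlation of the fold values was -0.0533, and it lay between -0.0448 and 0.0736 within each kind, as a description of sites that share 2 libraries. LINE-1-type sites stood out in LAP-Smad3 fold, with a median of 6.88 against 4.39 at Alu-type sites and 5.06 without recurring 20-mers, while their LAP-Smad2 fold (median 4.17) was close to that of the other kinds (3.80 to 4.27). At the limit of the rule, 38 sites overlapped a LAP-Smad3 peak by 10 bp or less, 33 LAP-Smad2-only sites missed a LAP-Smad3 peak by 10 bp or less, and 528 shared induced sites (12.3%) had an untreated peak within 1 kb.

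Shared induced sites were less often at promoters than LAP-Smad2-only sites. Within 3 kb of a start site of any annotated transcript lay 32.2% (30.9% to 33.7%) of them, against 49.9% (49.2% to 50.7%) of LAP-Smad2-only and 33.6% (33.2% to 34.0%) of LAP-Smad3-only sites. Shared sites that also overlapped an untreated peak had 28.3% (26.5% to 30.2%). The shared induced share was below that of LAP-Smad2-only sites on 23 of 23 chromosomes, with a median difference (shared induced minus LAP-Smad2-only) of -16.8 percentage points, and below that of LAP-Smad3-only sites on 13 of 23. Outside promoters, 36.4% of the summits were intronic, 28.2% intergenic and 3.14% exonic. Of the 1386 promoter sites, 810 were near a start of any transcript of a protein-coding gene and 430 near a start of a long noncoding RNA gene, and a site can count for both. With protein-coding transcripts alone, 608 of the 4299 sites lay within 3 kb of a start.

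The promoter share differed between the kinds of sequence. Sites without recurring 20-mers were at promoters in 50.3% (48.1% to 52.5%), against 56.7% (55.8% to 57.5%) of LAP-Smad2-only and 42.1% (41.6% to 42.6%) of LAP-Smad3-only sites without them. In single-copy sequence the shares were 52.9%, 61.2% and 42.3%. In like sequence the shared induced sites thus stayed below LAP-Smad2-only sites but lay above LAP-Smad3-only sites. For starts of protein-coding transcripts the shares without recurring 20-mers were 25.3%, 39.8% and 19.7% in the same order. Shared sites that also overlapped an untreated peak were at promoters in 36.8% (34.0% to 39.7%) without recurring 20-mers and 34.0% (27.8% to 40.7%) in single-copy sequence. Alu-type, LINE-1-type and SVA-type sites were at promoters in 17.8%, 12.8% and 18.5%, close to or below the 18.2% of windows spaced along the genome. Among the 389 sites of single-copy sequence (no recurring 20-mer and no near-identical copy) within 3 kb of a protein-coding start, the LAP-Smad2 summit had a median position of 168 bp downstream of the start, 65.3% lay within 500 bp, and LAP-Smad3 was downstream of LAP-Smad2 at 49.1%.

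**Figure D5:**
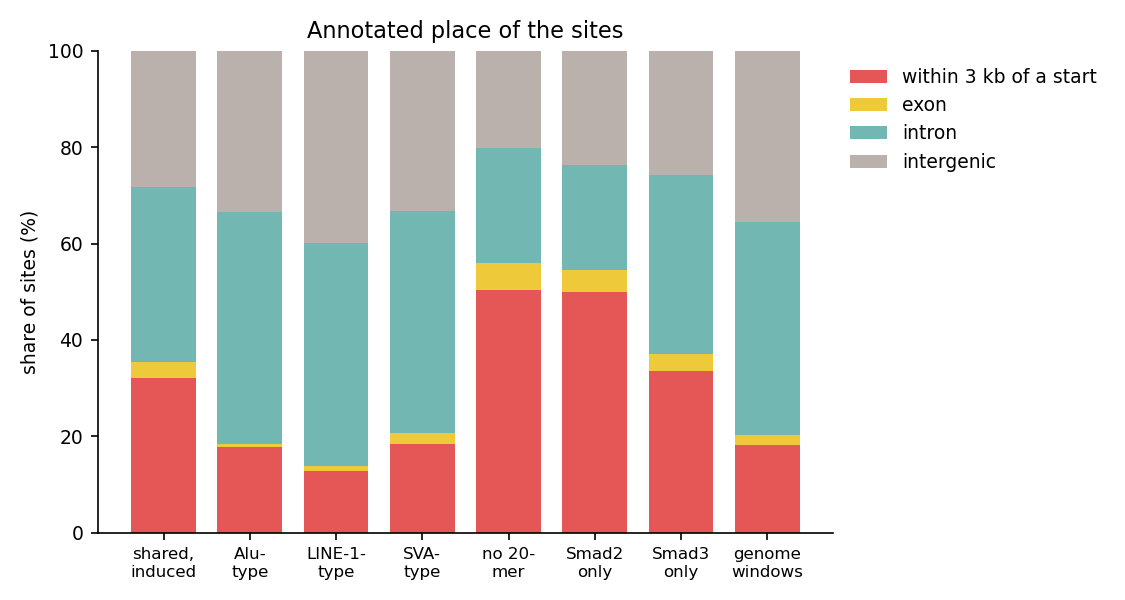
Annotated place of the sites as a share of each set (y axis, %): within 3 kb of a transcript start, exon, intron or intergenic. Promoters take 32.2% of shared induced sites, 50.3% of those without recurring 20-mers and 49.9% of LAP-Smad2-only sites, a set that keeps its recurring 20-mers.

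The sites were GC-rich, with a mean GC content of 62.2% (SD 5.26 over 4299 windows), between LAP-Smad2-only sites (64.4%) and LAP-Smad3-only sites (58.1%) and above the genome windows (40.9%). Shared sites that also overlapped an untreated peak had a mean of 66.4%. The shared induced sites were above LAP-Smad3-only sites on 23 of 23 chromosomes and below LAP-Smad2-only sites on 22 of 23. The order against the sites of a single Smad held in single-copy sequence, where 1127 shared induced sites had a mean of 65.7%, 11447 LAP-Smad2-only sites 67.4% and 23266 LAP-Smad3-only sites 59.8%. There the shared induced sites were above LAP-Smad3-only sites on 23 chromosomes and below LAP-Smad2-only sites on 21. Chromosomes are parts of the same libraries and not replicates.

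Of the 21 motifs searched on both strands, the share of windows with a match mostly followed the kind of sequence. CAGAC was in 40.2% (38.8% to 41.7%) of shared induced windows, in 33.2% of LAP-Smad2-only and 34.3% of LAP-Smad3-only windows, and in 41.4% of genome windows weighted to the same GC content. Behind the average lay 95.5% of LINE-1-type, 76.0% of SVA-type, 11.0% of Alu-type and 39.8% of windows without recurring 20-mers. In single-copy sequence CAGAC was in 40.7% (37.9% to 43.6%) of shared induced windows, against 38.4% of LAP-Smad2-only, 41.8% of LAP-Smad3-only and 40.2% of genome windows weighted to their GC content, so the sets lay inside the counting error of the shared induced sites. CAGAC is in 31.2% of 35116 RefSeq promoter windows of the same length.

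GC-rich variants varied in the same manner. GGCGC was in 87.9% of Alu-type, 80.6% of LINE-1-type and 40.9% of windows without recurring 20-mers, and GGCCG in 95.2% of SVA-type but 1.92% of LINE-1-type windows. In single-copy windows GGCGC was in 42.7% (39.8% to 45.6%), above LAP-Smad3-only (34.6%) and genome windows (36.1%) of the same GC content and below LAP-Smad2-only windows (49.1%). GGCCG was in 55.8% (52.9% to 58.7%), against 47.6%, 48.8% and 57.8% in the same order. GGCGC and GGCCG are in 41.7% and 41.2% of RefSeq promoter windows. In single-copy windows, 662 GGCCG matches lay within 50 bp of the LAP-Smad2 summit and 523 farther out, and CAGAC had 328 and 321. Around the LAP-Smad3 summit of the same sites, GGCCG had 524 within 50 bp and 481 farther out, and CAGAC 346 and 331. GGCGC had 482 and 445 around the LAP-Smad2 summit and 468 and 366 around the LAP-Smad3 summit. The shares above set shared induced windows on the LAP-Smad2 summit against LAP-Smad3-only windows on the LAP-Smad3 summit. What this centring adds to the differences was not tested.

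The motifs of other factors ranged from absent to common. TGANTCA, the AP-1 motif, was in 1.28% (0.984% to 1.66%) of shared induced windows, below LAP-Smad3-only windows (3.02%) and genome windows of the same GC content (3.17%). LAP-Smad2-only windows had 1.54%, inside that interval, and shared windows with an untreated peak 0.573%. In single-copy windows the share was 1.69% (1.08% to 2.62%), against 3.78% of LAP-Smad3-only and 2.09% of LAP-Smad2-only windows of the same GC content. Genome windows of that GC content had 2.62%, at the upper limit of the interval. The forkhead core TGTTTAC was in 5.51% (4.87% to 6.24%) of shared induced windows but 0.710% (0.360% to 1.39%) of those of single-copy sequence, and 46.7% of LINE-1-type windows held it. TGTGGT was likewise in 44.6% of LINE-1-type and 9.06% of windows without recurring 20-mers. AGGTCA, bound by nuclear receptors, was in 51.3% of Alu-type and 9.16% of windows without recurring 20-mers. CAGCTG, an E-box core that E2A and Tcf12 bind, was in 24.0% (21.6% to 26.5%) of single-copy shared induced windows. LAP-Smad2-only, LAP-Smad3-only and genome windows of the same GC content had 22.7%, 21.6% and 19.8%. RefSeq promoter windows, which were not weighted for GC content, had 11.6%. Over all shared induced windows the order differed, with CAGCTG in 539 of 4299 (interval 11.6% to 13.6%). There LAP-Smad2-only windows had 17.2%, LAP-Smad3-only windows 14.9% and genome windows of the same GC content 18.5%. CAGCTG was in 2.18% of Alu-type and 21.8% of windows without recurring 20-mers. AATCCACA, the FOXH1 motif, was in 0 of 4299 windows, with a Wilson upper limit of 0.0893%, in 0 of the shared windows with an untreated peak, and in 0.368% of LAP-Smad2-only and 0.243% of LAP-Smad3-only windows. In single-copy windows the upper limit was 0.340%, which covers the 0.325% of LAP-Smad2-only and 0.286% of LAP-Smad3-only windows of the same GC content, so a difference was not detectable there. In RefSeq promoter windows TGANTCA is in 5.38%, TGTTTAC in 2.32%, TGTGGT in 8.72%, AGGTCA in 9.83% and AATCCACA in 0.575%. A match is a description of letters and not a bound site.

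Of 19970 protein-coding genes, 2556 (12.8%) had a shared induced site within 10 kb of the gene, 2147 of them with a single site and 97 with at least 3. In single-copy sequence the count was 1024 genes (5.13%), and 868 genes (4.35%) had a shared induced site within 3 kb of a start. Among 164 genes of the TGFβ response in 10 lists, 21 (12.8%) had a site within 10 kb, which equals the share of all protein-coding genes, 13 (7.93%) had one of single-copy sequence and 8 (4.88%) had one within 3 kb of a start. The listed genes were a median of 31.3 kb long and all protein-coding genes 27.5 kb, and longer genes have more room for a site. LAP-Smad2-only and LAP-Smad3-only sites lay near 50.6% and 76.2% of the listed genes, against 47.1% and 70.4% of all.

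Ligands and receptors had a site at 5 of 28 genes. These were TGFB1 and NODAL, both ligands, LTBP3, which holds the latent ligand in the matrix, and the receptors ACVR1C and BMPR1B. The TGFB1 site (chr19:41310182-41310411) lay within the annotated gene, 31768 bp downstream of the nearest TGFB1 start, with a fold of 4.05 for LAP-Smad2 and 5.21 for LAP-Smad3. The NODAL site (chr10:70435427-70435648) lay 6158 bp downstream of the nearest NODAL start and had folds of 4.15 and 6.28 with summits 273 bp apart. The TGFB1 and NODAL sites both lay within 3 kb of a start of another annotated gene, and neither within 3 kb of a start of its own. The LTBP3 site lay at -330 bp from an annotated start within the gene and was Alu-type, and the ACVR1C site was LINE-1-type.

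Smads and their partners had a site at 4 of 15 genes, namely RUNX1 and RUNX2, factors that bind with Smads, ZFYVE9, the anchor that presents Smads to the receptor, and DRAP1, a corepressor. The ZFYVE9 site lay outside the gene, 61740 bp from its nearest start, and within 3 kb of a start of another annotated gene. None of the Smad genes was among those with a site, and 1 shared induced site lay within 100 kb of SMAD3 and none within 100 kb of SMAD2, the genes that the BACs carry. Negative feedback genes had a site at 2 of 19, WWP1, a ubiquitin ligase, in SVA-type sequence, and PMEPA1, a TGFβ target that sequesters the receptor-regulated Smads. At PMEPA1 (ENSG00000124225.16) the site chr20:57692457-57692737 lay at -791 bp from an annotated start within the gene, with a LAP-Smad2 fold of 4.32 (-log10 q of 7.47), a LAP-Smad3 fold of 7.72 (-log10 q of 8.73) and summits 36 bp apart. By the q-value ranking described with the strongest sites, it came ahead of the sites of all other listed genes.

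The ID factors, which block basic helix-loop-helix proteins, had a site at 1 of 4 genes. It lay 869 bp downstream of the ID1 start (chr20:31605938-31606212), with folds of 3.38 and 4.59. Cytostatic genes had a site at 3 of 11, including CDKN1A, the cyclin-dependent kinase inhibitor p21. The CDKN1A site lay 829 bp downstream of a start (chr6:36679532-36679750), with folds of 2.83 and 2.90 and summits 11 bp apart. Its LAP-Smad3 -log10 q was 2.48, which is 92.3% of the way down the treated LAP-Smad3 list. RBL1, a relative of the retinoblastoma protein, had 4 sites, of which 2 were SVA-type and 1 lay 169 bp downstream of the start. CDC25A, a cell cycle phosphatase, had an Alu-type site outside the gene, at -7465 bp, within 3 kb of a start of another annotated gene. EMT factors had a site at 2 of 13, the transcriptional repressor ZEB1 (LINE-1-type) and the chromatin protein HMGA2 (Alu-type).

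Hippo effectors had a site at 2 of 17 genes, both with a promoter site, and MOB1B had an Alu-type intronic site as well. The site at MOB1B, a kinase cofactor, lay at -196 bp from its start with summits 3 bp apart. The site at TEAD2, a DNA-binding partner of YAP, lay at -2093 bp with a LAP-Smad2 fold of 5.56 and a LAP-Smad3 fold of 3.83. The LAP-Smad3 -log10 q at TEAD2 was 2.89, which is 87.7% of the way down the treated LAP-Smad3 list. AP-1 factors had a site at 1 of 15 genes (ATF2, SVA-type), matrix and metastasis targets at 1 of 36 (PDGFB, a growth factor), and the basic helix-loop-helix partners at 0 of 8.

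The strongest sites, ranked by the worse of their q-value percentiles in the treated lists, were all in repeated sequence. Each of the best 10 had a near-identical copy. The leading 3 stood on chromosome 5, 318 to 360 bp downstream of the starts of TAF11L5, TAF11L3 and TAF11L4, a tandem gene family, with -log10 q of 36.9, 27.9 and 18.6 for LAP-Smad2 and 47.4, 55.4 and 63.1 for LAP-Smad3. A further 6 stood between chr21:8230771-8230983 and chr21:8462288-8462983 on the short arm of chromosome 21, with LAP-Smad2 folds of 1.87 to 2.06 and -log10 q of 14.9 to 17.9. The last, chr4:49325123-49325340, lay 338647 bp from the nearest protein-coding start. None of these 10 can be tied to a single copy.

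Among sites within 3 kb of a protein-coding start and with no near-identical copy, the same ranking gave MAPK13, TBRG1, ENSA, PMEPA1, YES1, NKAPL, H2AC6, FHIT, COL14A1 and FAM83A. The MAPK13 site, at a p38 kinase gene, lay 618 bp downstream of the start (chr6:36131110-36131454) with folds of 3.84 and 7.91. The TBRG1 site lay 88 bp downstream (chr11:124622827-124623213) with folds of 6.85 and 6.58, and was the strongest of these 10 for LAP-Smad2, with a -log10 q of 14.9. At YES1, a Src family kinase gene, the site lay 163 bp downstream of the start and had the highest GC content of the 10, 78.5%. The ENSA site was Alu-type. Over the 10 sites the LAP-Smad2 fold ran from 3.84 to 6.85 and the LAP-Smad3 fold from 6.26 to 7.91, and the summits were 15 bp (ENSA) to 257 bp (YES1) apart.

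Shared induced sites were unevenly spread along the genome. Their density ran from 0.730 per Mb on chromosome X to 2.45 per Mb on chromosome 17. The densest Mb was chromosome 21 from 8 to 9 Mb with 23 sites, all with near-identical copies, and the next 3 adjoined each other on chromosome 6, with 16, 17 and 15 sites from 35 to 38 Mb. There the density was 16.0 sites per Mb, against 1.92 on the rest of chromosome 6 and 1.43 on the other chromosomes, and 46 of the 48 sites were of single-copy sequence. The MAPK13, CDKN1A and FGD2 sites were among them, and 41 of the 48 lay within 10 kb of a protein-coding gene. The same 3 Mb were also dense in LAP-Smad2-only sites (25.3 per Mb against 6.48 on the rest of chromosome 6) and LAP-Smad3-only sites (63.7 against 17.9). Peaks of the list labelled LAP-Smad3 untreated stood at 12.7 per Mb there against 1.24, and those of the list labelled LAP-Smad2 untreated at 3.00 against 3.74. The shared induced sites, the sites of a single Smad and 1 of the untreated lists were thus all denser in the same place, and what this density adds to the count of shared induced sites was not tested.

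The protein-coding genes with most shared induced sites within 10 kb were PTPRN2 (10 sites), CCDC200 and PRKAG2 (9 each), and CDH4 and SHANK2 (6 each). PTPRN2, a receptor-type phosphatase gene of 1049 kb, also held 24 LAP-Smad2-only and 106 LAP-Smad3-only sites. PRKAG2, which encodes a subunit of AMP-activated kinase, had 8 of its 9 sites in single-copy sequence and 4 within 3 kb of a start, whereas none of the 9 at CCDC200 was of single-copy sequence. CDH4, a cadherin gene, and SHANK2, a scaffold protein gene, are 688 kb and 785 kb long and had 4 single-copy sites each.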

How the data were processed

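Anti-GFP ChIP-seq of LAP-Smad2 and LAP-Smad3 in MDA-MB-231 cells gave 1 peak list per condition. Reads were single-end; the authors used Bowtie2 with the hg38 build, lengthened each read to 200 bp, and ran MACS2 with a q-value limit of 0.05. Tool versions, the control library, filters and the treatment of reads with several matches are not given in the sources used here. The fold enrichment at the summit is a ratio computed by the authors' peak caller, and the deposited p-values and q-values are on the −log10 scale. The remaining column used is the summit offset deposited by the authors.

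Sites, windows, motifs, copies and genes were computed on hg38 and GENCODE release 44, using minimap2 2.31 for copies and pysam 0.24.0, pandas 2.3.3 and numpy 2.4.6 under Python 3.11.15. The hg38 and peak coordinates use the same chromosome names. A near-identical copy is a further alignment matching at least 90% of the 200 bp window. Windows for which the aligner reported no such alignment, not even to their own place, also counted as free of copies, so a copy can be missed. Elements were runs of 20-mers at most 1000 bp apart. GC weighting used bins of 5%. Promoter sequences came from RefSeq (GRCh38.p14), using the 200 bp upstream of the start. Single-copy genome windows had no recurring 20-mer and under 10% frequent 14-mers (at least 2000 copies). Functions were tested on simulated data. With 1 library per condition no test was made, and Wilson 95% intervals cover counting error only. The depth of the libraries is unknown.

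The sites, gene lists, motifs and 20-mer kinds were chosen with earlier results of these data known. Named sites are the best 10 by the worse percentile of q in both treated lists, leaving out 100 kb around SMAD2 and SMAD3, the best 10 within 3 kb of a protein-coding start without a near-identical copy, all listed genes with a site and the 5 genes with most sites. FGD2 was added after values were seen, as a lower-ranked site whose window holds no recurring 20-mer and no exon. Some sequences are not reported here. Other settings are given under the closing section.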

Additional observations from a re-analysis of the deposited data

How the results depend on the processing

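No paired analysis was possible because each condition has 1 library and the result comes from no test. Of 49 alternative values, 27 stayed within 1.5 times the count or within the counting interval of the value reported, and 22 moved. With recurring 20-mers left out of every set, a comparison chosen after seeing the data, the promoter share stayed below that of LAP-Smad2-only sites (50.3% against 56.7%), and against LAP-Smad3-only sites it turned from 32.2% against 33.6% to 50.3% against 42.1%. The cause of the moves was not tested, beyond the fewer sites left by construction. A mutual overlap of at least 50% left 2703 sites with a median summit distance of 50 bp, a promoter share of 28.6%, a mean GC of 61.4% and CAGAC in 32.6%. Without near-identical copies 1637 sites remained, near 1339 protein-coding genes, with a median distance of 84 bp, a promoter share of 43.3%, a mean GC of 63.0% and CAGAC in 34.0%. Without an untreated peak within 1 kb, the mean GC was 61.9% and CAGAC was in 36.6%. Leaving out recurring 20-mers, an alternative chosen after seeing the data, gave 1976 sites near 1393 genes, a median distance of 105 bp, a promoter share of 50.3% and a mean GC of 65.1%. Promoters of 1 kb gave 21.4% and protein-coding transcripts alone 14.1%, windows on the LAP-Smad3 summit a mean GC of 61.4%, and a limit of 3 kb from a start 868 genes. A q of at most 0.01 in each list (4209 sites), and leaving out the dense regions of chromosomes 6 and 21 (4228 sites, added after seeing the data), moved none of the 7 results, and the share with TGANTCA moved under no alternative. The unknown depth of the libraries limits every statement on the absence of a peak.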
